A study of Bos taurus with 24 samples.

Results

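The genes of mitochondrial protein import and of the SLC25 carrier family were followed in bovine oocytes before and after maturation, in spring and in summer. The members were all genes of the deposited table whose symbol begins with TIMM, TOMM, SLC25A, GRPEL or MTX with a digit, together with SAMM50, PMPCA and PMPCB. The rule found 63 of the 11306 listed genes, of which 34 are SLC25 carriers. The other 29 are counted here as import machinery by their symbols, and they include TIMMDC1, a complex I assembly factor. The rule uses symbols and no expression value, but it was set with earlier results of these data known.

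Oocytes were taken by ultrasound-guided ovum pick-up from adult crossbred Angus-based *Bos taurus* beef cows that were neither lactating nor pregnant. The 4 groups were GV oocytes of May (spring GV), GV oocytes of July (summer GV), MII oocytes of May (spring MII) and MII oocytes of July (summer MII), with 6 RNA-seq libraries per group and no other treatment. GV oocytes are arrested in prophase with an intact germinal vesicle. MII oocytes, named for metaphase II, had been matured *in vitro* inside their cumulus complexes, so that the contrast of MII with GV oocytes also contains the culture. Maturation was scored in the study by cumulus expansion and, in oocytes fixed for imaging, by a DNA stain. No such stain of the RNA-seq pools is described. Per the study's methods, cumulus cells were stripped off and 4 oocytes of the same animal were pooled for a library, while the labels speak of individual cells. The study's methods describe 1 group of cows that was sampled in both seasons, with part of each cow's oocytes matured, so that libraries of different groups may share animals, and the labels do not link them. The values are shares of a library, and fewer oocytes or less RNA per oocyte cannot be told apart from them.

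Nearly all mitochondrial proteins are made in the cytosol and imported. The TOM complex of the outer membrane receives precursors through its receptors and passes them through a pore formed by TOMM40, the TIM23 complex with its Hsp70 motor draws proteins with a presequence into the matrix, where the processing peptidase removes that sequence, and the small TIM proteins escort hydrophobic carriers across the intermembrane space to the TIM22 complex. The SLC25 carriers are themselves clients of that route and exchange nucleotides, phosphate, carboxylates, amino acids and ions across the inner membrane. A fully grown oocyte is rich in mitochondria, makes little or no new RNA, and passes through maturation on stored transcripts that are selectively polyadenylated, deadenylated and degraded.

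The libraries differed in depth. The deposited unit is named FPKM, fragments scaled to the length of the gene and to the depth of the library. Every library summed to 86768 over the listed genes, so that the values were scaled to this sum and not to the read total. After the added 0.01 was subtracted, 98.2% of 236951 values lay within 0.1 of a whole number of reads when multiplied by the genomic span of the gene and a constant of the library, against 20% expected from that tolerance alone. The length behind these FPKM values was therefore the whole genomic span, introns included, and reads could be recovered. They totalled 324654 to 28207689 per library over the listed genes, with a median of 3836568, and the shallowest libraries were spring GV replicate 6, spring MII replicate 6 and summer GV replicate 2. Of 12 oocyte markers, 8 were listed, and their summed level was 424 to 1862 FPKM over all libraries. The 18 cumulus cell markers summed to between 3.35 and 407 FPKM, with the highest sums in spring GV replicates 6 and 3. The part of these differences in the results was not tested, and the members' calls lost without the 3 shallow libraries are given.

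Because a gene is divided by its genomic span, FPKM levels compare genes per kilobase of span, and a gene with long introns reads low. TOMM6, a small subunit that helps hold the TOM complex together, had the highest mean level of the 63 genes at 646 FPKM, and it lies in a span of 1352 bp. There were 13 members with a mean over 10 FPKM, of which 10 belong to the import machinery and 3 are carriers. At the other end, 10 members averaged under 0.1 FPKM. SLC25A21 and SLC25A40, with spans of 522561 and 418564 bp, never exceeded 0.1 FPKM and were not tested on the FPKM scale, which left 61 members. Together the 63 genes held between 0.725% and 1.03% of the recovered reads in every library. TOMM6 alone took 8.87% to 18.5% of these reads in the 12 GV libraries and 17.9% to 36.0% in the 12 MII libraries.

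To ask which import and carrier transcripts changed with maturation, MII oocytes were compared with GV oocytes within each season by limma on log2(FPKM + 1), across all 9526 genes over 0.1 FPKM in at least 1 library. Genes counted as called, upregulated or downregulated, when they changed more than 2-fold with p under 0.05 before adjustment. These words describe the measured share of a transcript. The study's methods describe capture of mRNA, and whether a change reflects transcript amount or the length of the poly(A) tail was not tested. In spring, 4 of the 61 members were upregulated and 8 downregulated in MII oocytes, beside 3.57% upregulated and 8.25% downregulated over all genes tested. In summer, 2 members were upregulated and 10 downregulated, beside 2.2% and 9.26% of all genes. When the adjusted p (Benjamini-Hochberg) was held under 0.05 instead, whatever the fold, 5 members were higher and 11 lower in spring, where 24.2% of all genes passed in either direction, and 7 were higher and 19 lower in summer, where 30.7% passed. The median log2 fold change of the members was -0.14 in spring and -0.13 in summer, and that of all genes tested was -0.03 and -0.02. Over all tested genes in both directions, 19.7% of the members were called in each season, beside 11.8% of all genes in spring and 11.5% in summer. Among genes with a mean of at least 1 FPKM, the shares were 32.4% of 37 members in each season beside 30% and 29% of all genes, so that the members stood near that background. The calls lay mostly in the import machinery, with 10 of its 29 genes in spring and 8 in summer, against 2 and 4 of the 32 carriers tested. None of the 26 members with a mean under 1 FPKM was called in either season. Of the 13 members over 10 FPKM, 10 are import genes and 3 are carriers. The part of expression level in this contrast was not tested.

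The same 9 members were called in both seasons, TOMM6 and TOMM7 upward and TOMM5, TIMM17B, TIMM23, TIMM22, TIMM10B, SLC25A39 and SLC25A4 downward. TIMM10, TIMM21 and TIMM8A were called in spring alone, and TOMM70, SLC25A1 and SLC25A11 in summer alone. Over all genes tested, 1.42% were called upward and 7.3% downward in both seasons. Of the 61 members, 55 (90.2%) had a change of the same sign in both seasons, beside 85.5% of all genes. The seasons are separate sets of libraries, and the difference between their changes is tested further on.

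**Figure D1:**
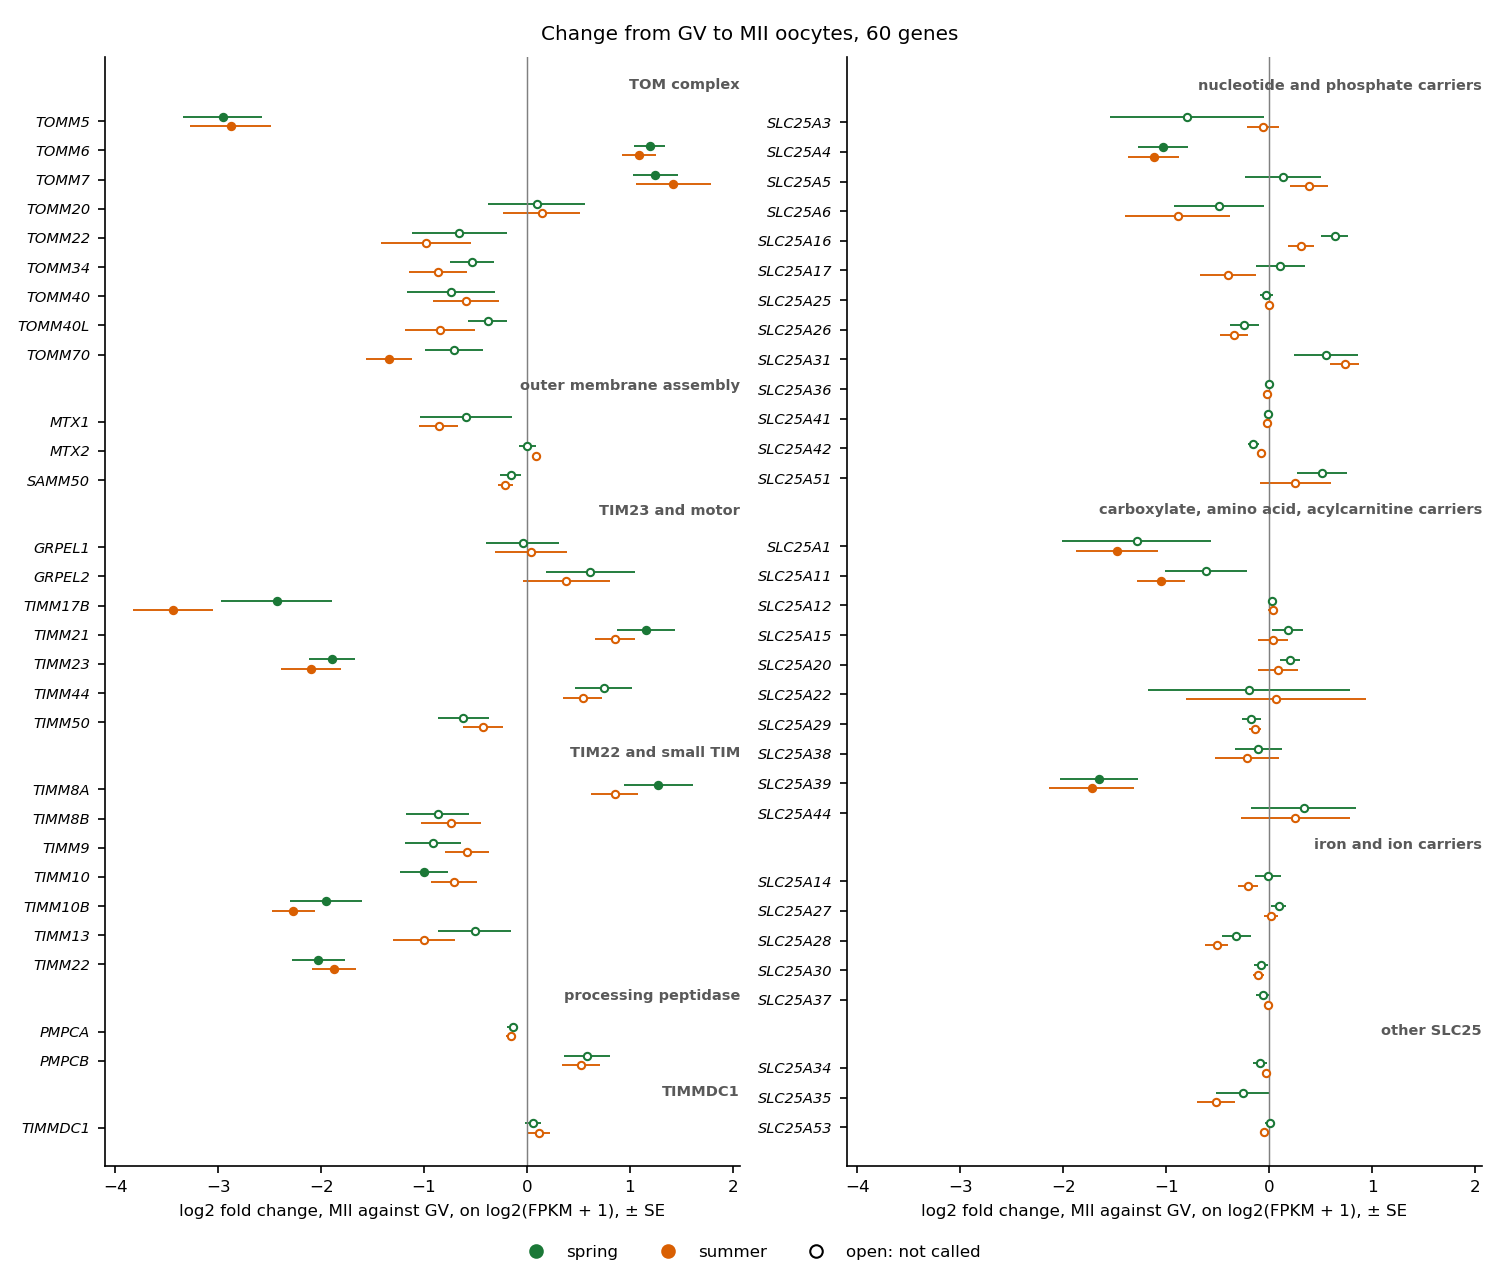
Log2 fold change of MII against GV oocytes on log2(FPKM + 1) for 60 of the 61 tested genes, grouped by role, in spring (green) and summer (orange). Points are limma estimates, bars are standard errors, and filled points were called. TOMM5 (-2.96 and -2.88) and TIMM17B (-2.43 and -3.44) lie farthest to the left, while TOMM6 and TOMM7 lie to the right of 1 in both seasons.

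The small subunits of the TOM complex went in opposite directions. TOMM6 (chromosome 23, 15609349 to 15610701, UMD3.1.1) ranged from 317 to 466 FPKM in spring GV oocytes with a median of 374, and from 790 to 984 FPKM in spring MII oocytes with a median of 869. In summer it ranged from 354 to 495 FPKM with a median of 415 in GV oocytes, and from 726 to 1074 FPKM with a median of 897 in MII oocytes. Every MII library was above every GV library of its season. The log2 fold change was 1.19 in spring (standard error 0.15, limma adjusted p = 0.000239) and 1.09 in summer (standard error 0.16, limma adjusted p = 0.000336), with a two-sided exact permutation p of 0.00216 in each season, the smallest that 6 against 6 libraries allow.

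TOMM7 (chromosome 4, 31643802 to 31651173), a subunit that also steadies the kinase PINK1 at the outer membrane, ran from 32.5 to 57.7 FPKM in spring GV oocytes (median 50.2) and from 75.8 to 136 FPKM in spring MII oocytes (median 114). In summer it ran from 34.6 to 99.6 FPKM (median 50.7) in GV and from 73.2 to 283 FPKM (median 151) in MII oocytes. The stages were separate in spring and overlapped in summer, where the lowest MII library lay below the highest GV library. The log2 fold changes were 1.25 and 1.42 (limma adjusted p = 0.00165 and 0.0113).

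TOMM5 (chromosome 8, 62079194 to 62082502), the smallest kind of TOM subunit and a neighbour of the pore, moved the other way. Spring GV oocytes had 28.6 to 104 FPKM (median 46.6) and spring MII oocytes 3.00 to 11.8 FPKM (median 4.49). Summer GV oocytes had 15.9 to 74.9 FPKM (median 49.4) and summer MII oocytes 2.17 to 12.4 FPKM (median 4.68). No MII library reached the GV range of its season, and the medians differed 10.4-fold in spring and 10.6-fold in summer. The log2 fold changes were -2.96 (standard error 0.38, limma adjusted p = 0.000261) and -2.88 (standard error 0.39, limma adjusted p = 0.00019).

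TOMM70 (chromosome 1, 44294564 to 44331744), the receptor that takes carrier precursors from cytosolic chaperones, was downregulated in summer. It had 4.70 to 10.6 FPKM in summer GV oocytes (median 5.56) and 0.893 to 2.85 FPKM in summer MII oocytes (median 1.73), without overlap (log2 fold change -1.34, limma adjusted p = 0.000733). In spring the values were 2.32 to 10.7 FPKM (median 3.86) in GV and 1.52 to 3.07 FPKM (median 2.18) in MII oocytes, and the ranges overlapped (log2 fold change -0.71, limma adjusted p = 0.0813). TOMM20, the receptor for presequences, had medians of 3.93 and 3.24 FPKM in spring GV and MII oocytes and of 2.89 and 3.46 FPKM in summer, with log2 fold changes of 0.10 and 0.14 (limma adjusted p = 0.889 and 0.802). TOMM40, the pore itself, had medians of 2.14 and 1.05 FPKM in spring and of 1.38 and 0.882 FPKM in summer, and its relative TOMM40L of 0.605 and 0.292 FPKM in spring and of 0.663 and 0.159 FPKM in summer. Neither pore gene was called on the FPKM scale. Over the 9 TOM genes, 2 rose and 1 fell in spring, 2 rose and 2 fell in summer, and the median log2 fold changes were -0.54 and -0.84.

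**Figure D2:**
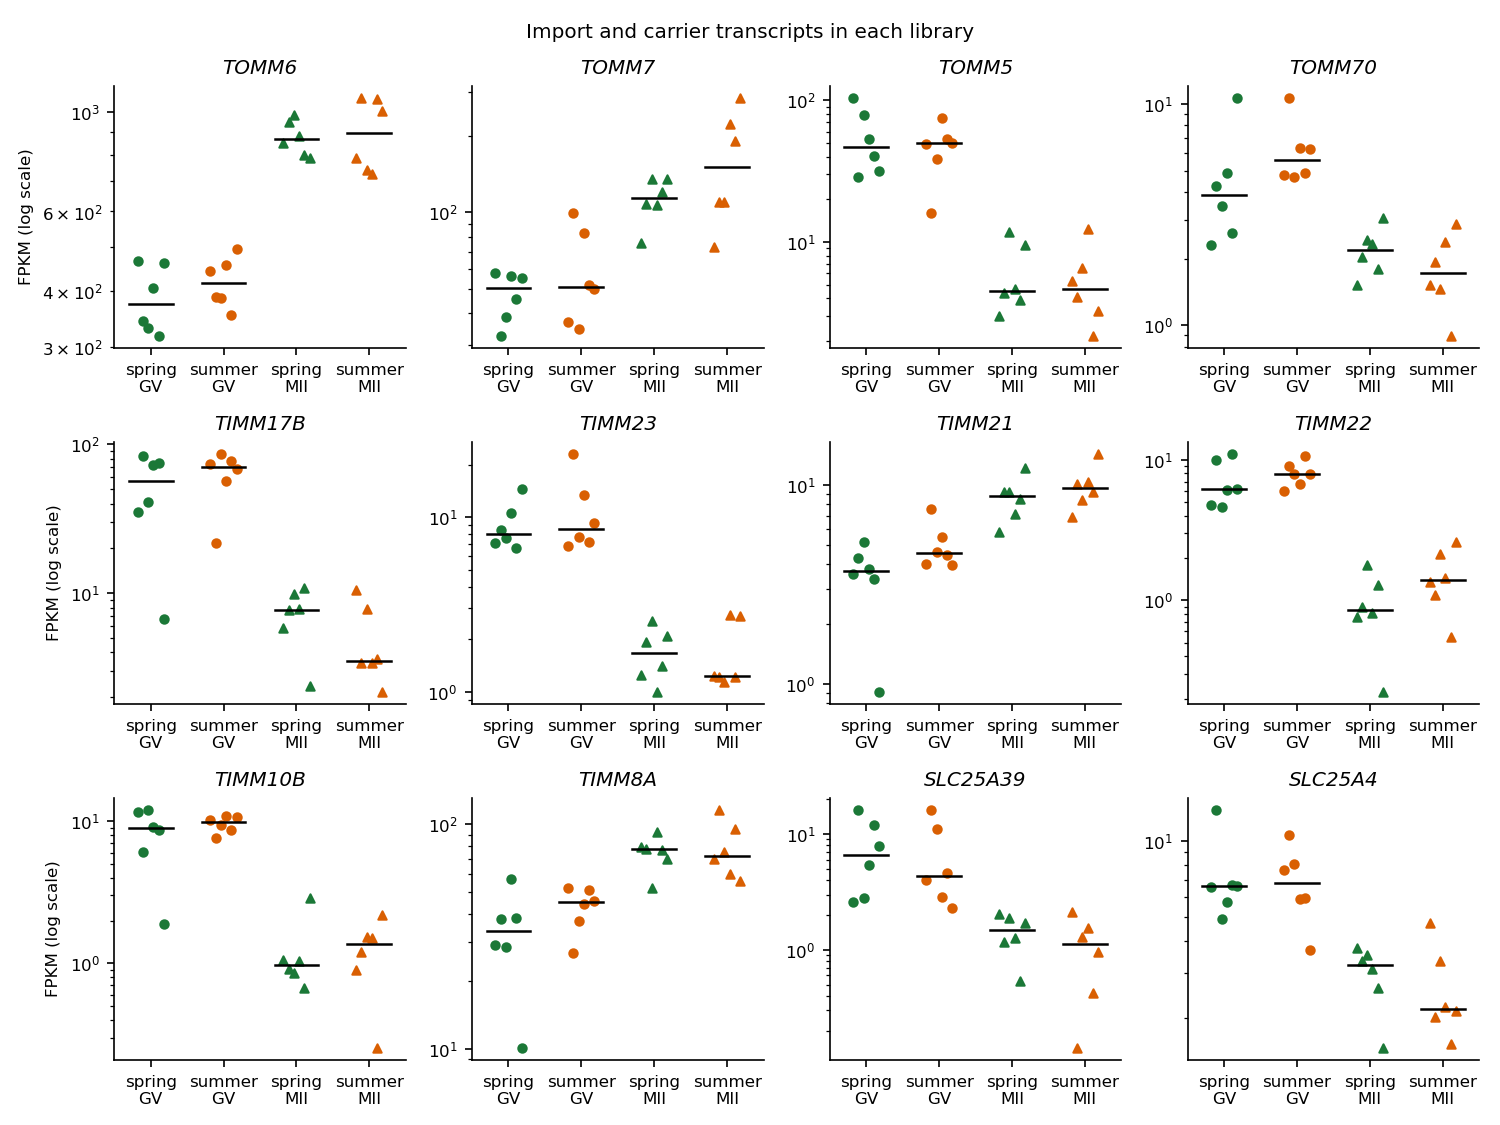
FPKM of 12 called members in every library (log axes that differ between panels), for GV (circles) and MII oocytes (triangles) of spring (green) and summer (orange), with a bar at each group median. TOMM6 and TOMM5 separate the stages completely in both seasons in opposite directions, and spring GV replicate 6 is the low green circle of TIMM17B (6.75 FPKM), TIMM21 (0.905 FPKM) and TIMM8A (10.1 FPKM).

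None of the 3 genes that assemble outer membrane proteins was called on the FPKM scale. SAMM50, the core of the assembly machinery, had medians of 0.312 and 0.208 FPKM in spring GV and MII oocytes and of 0.341 and 0.143 FPKM in summer. Its partner MTX1 had 0.386 to 2.55 FPKM (median 1.93) in spring GV and 0.0378 to 6.27 FPKM (median 0.301) in spring MII oocytes. In summer MTX1 had 0.760 to 1.91 FPKM (median 1.77) and 0.0584 to 0.793 FPKM (median 0.370). In summer MII oocytes MTX1 was lower with an adjusted p under 0.05 but under 2-fold on this scale (log2 fold change -0.86, limma adjusted p = 0.00486). Its paralog MTX2 had medians of 0.123 and 0.207 FPKM in spring and of 0.0970 and 0.204 FPKM in summer (log2 fold changes 0.00 and 0.09, limma adjusted p = 0.983 and 0.144). In recovered reads scaled to the library total (RPM), its medians were 20.8 and 30.0 in spring and 15.7 and 28.6 in summer (limma adjusted p = 0.891 and 0.594).

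In the TIM23 complex the channel genes fell and an accessory subunit was higher. TIMM17B (chromosome X, 92088346 to 92092139), which lines the channel, had 6.75 to 83.5 FPKM (median 56.8) in spring GV and 2.39 to 10.9 FPKM (median 7.76) in spring MII oocytes. In summer it had 21.7 to 86.4 FPKM (median 70.9) in GV and 2.17 to 10.5 FPKM (median 3.52) in MII oocytes. The stages were separate in summer, where the medians differed 20.2-fold, and overlapped in spring through spring GV replicate 6. The log2 fold changes were -2.43 (standard error 0.54, limma adjusted p = 0.00671) and -3.44 (standard error 0.38, limma adjusted p = 5.03e-05).

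TIMM23 (chromosome 28, 44397814 to 44418584), the other channel protein, had 6.63 to 14.5 FPKM (median 8.03) in spring GV and 0.995 to 2.55 FPKM (median 1.67) in spring MII oocytes. In summer it had 6.83 to 23.0 FPKM (median 8.51) and 1.13 to 2.74 FPKM (median 1.22). The stages did not overlap in either season (log2 fold changes -1.89 and -2.10, limma adjusted p = 0.000145 and 0.000202).

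TIMM21 (chromosome 24, 4515594 to 4521310), a subunit that links the complex to TOM and to respiratory chain assembly, was upregulated in spring, from 0.905 to 5.13 FPKM (median 3.67) in GV to 5.78 to 12.2 FPKM (median 8.82) in MII oocytes. In summer it had 3.95 to 7.52 FPKM (median 4.53) in GV and 6.90 to 14.3 FPKM (median 9.66) in MII oocytes, a change under 2-fold on log2(FPKM + 1). The log2 fold changes were 1.16 and 0.86 (limma adjusted p = 0.01 and 0.00535). Without spring GV replicate 6, in which 3 reads stand behind the value, the spring change was 0.926 and no longer a call, and without all 3 shallow libraries it was 0.829. Median-of-ratios scaling also ended the spring call (0.996). The stages were separate in spring and overlapped in summer.

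The motor's nucleotide exchange factors GRPEL1 and GRPEL2 were not called. GRPEL1 had medians of 28.3 and 24.3 FPKM in spring GV and MII oocytes and of 18.3 and 25.5 FPKM in summer, with log2 fold changes of -0.04 and 0.04, and GRPEL2 had medians of 2.68 and 3.66 FPKM in spring and of 3.22 and 4.68 FPKM in summer. In every group GRPEL1 had the higher median of this pair per kilobase of span. Of the 7 TIM23 and motor genes, 1 rose and 2 fell in spring and 2 fell in summer.

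The carrier route, from the small TIM chaperones to the TIM22 complex, held 3 downregulated genes and 1 upregulated gene among 7 in spring, and 2 downregulated genes in summer. TIMM22 (chromosome 19, 22432982 to 22439071), the channel that inserts carriers into the inner membrane, had 4.58 to 11.0 FPKM (median 6.15) in spring GV and 0.222 to 1.79 FPKM (median 0.855) in spring MII oocytes. In summer it had 6.02 to 10.6 FPKM (median 7.92) and 0.551 to 2.58 FPKM (median 1.39). The stages were separate in both seasons (log2 fold changes -2.03 and -1.87, limma adjusted p = 0.00023 and 5.49e-05).

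TIMM10B (chromosome 15, 47185421 to 47186321), a small TIM bound to the TIM22 complex, had 1.90 to 12 FPKM (median 8.87) in spring GV and 0.676 to 2.88 FPKM (median 0.974) in spring MII oocytes. In summer it had 7.64 to 10.9 FPKM (median 9.77) and 0.254 to 2.18 FPKM (median 1.36). The lone overlap in spring came from spring GV replicate 6, where the value is a single read, and from spring MII replicate 6, where it is 4 reads. The log2 fold changes were -1.95 and -2.27 (limma adjusted p = 0.00211 and 1.48e-05).

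TIMM10 (chromosome 15, 82106827 to 82109424), which forms the soluble chaperone with TIMM9, had 26.3 to 64.2 FPKM (median 44.5) in spring GV and 17.9 to 29.7 FPKM (median 20.4) in spring MII oocytes, and medians of 40.4 and 25.8 FPKM in summer. Its spring log2 fold change of -1.002 (limma adjusted p = 0.00848) lay at the limit of a call, and the call was lost in 7 of 12 fits that left out 1 library, without spring GV replicates 1 (-0.893), 2 (-0.949), 4 (-0.996) or 5 (-0.997) or spring MII replicates 2 (-0.963), 5 (-0.965) or 6 (-0.955). Quantile normalization also ended the spring call (-0.745). In summer the log2 fold change was -0.71 (limma adjusted p = 0.0271).

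The paralogs TIMM8A and TIMM8B, of which TIMM8A is the gene of the Mohr-Tranebjaerg deafness-dystonia syndrome in people, moved apart. TIMM8A (chromosome X, 55167865 to 55170571) had 10.1 to 57.0 FPKM (median 33.4) in spring GV and 52.2 to 92.4 FPKM (median 77.3) in spring MII oocytes, and 26.7 to 52.0 FPKM (median 44.9) and 55.7 to 116 FPKM (median 72.6) in summer. The summer stages were separate and the spring stages overlapped slightly, with log2 fold changes of 1.28 and 0.85 (limma adjusted p = 0.0161 and 0.0130). Without spring GV replicate 6 the spring change was 0.980 and not a call, and without all 3 shallow libraries it was 0.993. TIMM8B had medians of 31.7 and 15.5 FPKM in spring and of 38.9 and 20.3 FPKM in summer, with log2 fold changes of -0.87 and -0.74 (limma adjusted p = 0.0545 and 0.0733). TIMM13, which pairs with the TIMM8 proteins, had medians of 96.6 and 60.2 FPKM in spring and of 90.6 and 57.8 FPKM in summer. Its summer libraries did not overlap between the stages, at a log2 fold change just short of 2-fold (-0.996, limma adjusted p = 0.0245).

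Neither subunit of the processing peptidase was called. PMPCB, the catalytic subunit, had medians of 0.753 and 1.69 FPKM in spring GV and MII oocytes and of 0.748 and 1.28 FPKM in summer (log2 fold changes 0.58 and 0.52, limma adjusted p = 0.0775 and 0.0477). PMPCA, which recognises the precursor, had medians of 0.173 and 0.0766 FPKM in spring and of 0.217 and 0.118 FPKM in summer (log2 fold changes -0.14 and -0.16, limma adjusted p = 0.0511 and 0.0165). TIMMDC1, a complex I assembly factor that shares the TIMM prefix, had medians of 0.187 and 0.267 FPKM in spring and of 0.235 and 0.297 FPKM in summer.

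Among the carriers, the calls were downward. SLC25A39 (chromosome 19, 44752354 to 44756898), the transporter that supplies the matrix with glutathione, had 2.60 to 16.2 FPKM (median 6.64) in spring GV and 0.538 to 2.03 FPKM (median 1.49) in spring MII oocytes. In summer it had 2.28 to 16.2 FPKM (median 4.34) and 0.141 to 2.12 FPKM (median 1.12). The stages did not overlap in either season (log2 fold changes -1.65 and -1.72, limma adjusted p = 0.00774 and 0.00734). Its paralog SLC25A40 never passed 0.0539 FPKM over its long span, with medians of 17.0 and 36.5 recovered reads in spring GV and MII oocytes and of 27.0 and 40 reads in summer.

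The ADP/ATP carriers, which exchange cytosolic ADP for matrix ATP, are encoded by SLC25A4, SLC25A5, SLC25A6 and SLC25A31. SLC25A4 (chromosome 27, 14546116 to 14549980), the form of heart and muscle, had 4.88 to 13.2 FPKM (median 6.61) in spring GV and 1.51 to 3.76 FPKM (median 3.23) in spring MII oocytes, and 3.69 to 10.6 FPKM (median 6.80) and 1.57 to 4.72 FPKM (median 2.16) in summer. The spring stages were separate and the summer stages overlapped (log2 fold changes -1.03 and -1.12, limma adjusted p = 0.00877 and 0.00482). The spring call was lost without spring GV replicate 2 (-0.859) or spring MII replicate 6 (-0.901), and without the 3 shallow libraries (-0.913). Under quantile normalization SLC25A4 was called in neither season (-0.811 in spring and -0.832 in summer). SLC25A5 had medians of 14.8 and 19.8 FPKM in spring and of 16.2 and 22.5 FPKM in summer (log2 fold changes 0.14 and 0.39, limma adjusted p = 0.788 and 0.128). SLC25A6 had medians of 18.6 and 9.99 FPKM in spring and of 13.4 and 9.95 FPKM in summer (limma adjusted p = 0.415 and 0.205).

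SLC25A31, the ADP/ATP carrier best known from male germ cells, was present in all 24 libraries. It had 0.661 to 3.58 FPKM (median 1.38) in spring GV and 1.92 to 5.74 FPKM (median 2.48) in spring MII oocytes, and 1.06 to 2.14 FPKM (median 1.2) and 2.52 to 3.40 FPKM (median 2.78) in summer. In summer every MII library was above every GV library, with a log2 fold change of 0.73 that did not reach 2-fold (limma adjusted p = 0.00181), and in spring the stages overlapped (0.55, limma adjusted p = 0.211). Within the ADP/ATP carriers, SLC25A4 was thus downregulated in both seasons, while SLC25A31 was higher in summer MII oocytes and SLC25A5 and SLC25A6 were not called on the FPKM scale. On the RPM scale, SLC25A6 was called downward in summer (-1.26, limma adjusted p = 0.0841), and this call was lost without the 3 shallow libraries (limma adjusted p = 0.121). Per kilobase of span, SLC25A5 and SLC25A6 had the higher medians of the 4 in every group, and their ranges overlapped each other.

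SLC25A1, the citrate carrier that exports citrate for lipid synthesis, was downregulated in summer, from 1.98 to 12.8 FPKM (median 5.13) in GV to 0.236 to 4.78 FPKM (median 0.997) in MII oocytes, with overlap (log2 fold change -1.47, limma adjusted p = 0.0143). In spring its values ran from 0.01 to 28.0 FPKM (median 5.82) and from 0.01 to 4.73 FPKM (median 2.31), with no read in 1 library of each stage (log2 fold change -1.29). SLC25A11, the oxoglutarate carrier of the malate-aspartate shuttle, had 4.41 to 7.89 FPKM (median 6.31) in summer GV and 0.929 to 3.85 FPKM (median 2.77) in summer MII oocytes, without overlap (log2 fold change -1.05, limma adjusted p = 0.00455). The call of SLC25A11 was lost without summer GV replicate 3 (-0.987) or summer MII replicate 2 (-0.881), and its spring change was -0.61. The summer call was also lost under quantile normalization (-0.742) and median-of-ratios scaling (-0.971). SLC25A22, a mitochondrial glutamate carrier, varied more between libraries of a group than between stages, from 3.1 to 174 FPKM in spring GV and from 2.35 to 109 FPKM in spring MII oocytes, around medians of 6.44 and 6.22 FPKM. The highest values were those of the shallow libraries spring GV replicate 6 and spring MII replicate 6. The next highest were 13.3 FPKM in spring GV replicate 2 and 14.5 FPKM in spring MII replicate 3. The calcium-sensitive aspartate-glutamate carrier SLC25A12 stayed between 0.0322 and 0.284 FPKM in all libraries.

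Of the iron importers of the inner membrane, SLC25A28 had medians of 0.384 and 0.121 FPKM in spring GV and MII oocytes and of 0.739 and 0.142 FPKM in summer, where it was lower in MII oocytes but under 2-fold on log2(FPKM + 1) (log2 fold change -0.51, limma adjusted p = 0.00453). SLC25A37, the erythroid form, had at most 9 reads in any library. The ATP-Mg/phosphate carriers SLC25A25 and SLC25A41 had at most 10 and 8 reads. SLC25A36, a pyrimidine nucleotide carrier, had medians between 0.0624 and 0.0690 FPKM in the 4 groups.

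Adding 1 FPKM before the logarithm compresses the fold changes of genes with long spans. Of the 63 members, 26 averaged under 1 FPKM. Their median span was 23181.5 bp, against 5716 bp for the other 37, and none of them was called in either season. The comparison was therefore repeated with limma on log2 RPM, the recovered reads of a gene scaled to the read total of its library, with 0.5 reads added. The scales thus also differ in what a library is scaled to, a common FPKM sum or its read total. The part of this in the differences between the scales was not tested. This scale was chosen after the values had been seen, and the fit covered the 8693 genes with at least 10 reads in at least 6 libraries. On this scale the median over all genes was -0.29 in spring and -0.45 in summer, so that zero is not the middle of the genes. In spring, 3 of 57 members rose and 22 fell, beside 10.7% and 30.9% of all genes, and in summer 1 rose and 25 fell, beside 5.88% and 34.4%. The median of the members was -0.79 in spring and -0.95 in summer. Of the 26 low members, 8 were called in at least 1 season, but not all 26 were tested. All 29 import genes and 28 of the 34 carriers had enough reads for this fit, and the carriers left out were all low members. The share of all genes called in at least 1 season was not computed on this scale. The members called in either direction made up 43.9% and 45.6% in spring and summer, beside 41.6% and 40.3% of all genes.

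The calls on the read scale were more numerous than on FPKM in both families. Of 29 import genes tested, 2 were upregulated and 16 downregulated in spring, and 1 and 15 in summer. Of 28 carriers tested, 1 was upregulated and 6 downregulated in spring, and 0 and 10 in summer. Over all genes on this scale, 41.6% were called in either direction in spring and 40.3% in summer. The 2 upregulated import genes of spring were TIMM21 and TIMM8A, and without the 3 shallow libraries neither was called (0.698 and 0.731). TIMM50 in spring also lost its call (-0.976), and PMPCB gained one there (1.22). Downward calls on RPM were also gained, and the genes are named for these values. They were SLC25A1 (-2.17), SLC25A11 (-1.05) and SLC25A30 (-1.09) in spring, and TIMM10 (-1.11), TIMM8B (-1.29) and TIMM9 (-1.17) in summer. On log2(FPKM + 1), MTX1 (-1.19), SLC25A1 (-1.54) and TIMM9 (-1.06) gained a call in spring without these libraries. In the TOM group, and named here for these values, TOMM22, TOMM34, TOMM40 and TOMM40L were downregulated in both seasons, as was TOMM70. MTX1 was downregulated in both seasons (log2 fold changes -2.31 and -2.62, limma adjusted p = 0.0400 and 0.00354) and SAMM50 in summer (-1.52, limma adjusted p = 0.0293). PMPCA was downregulated in both (-1.77 and -1.81, limma adjusted p = 0.0248 and 0.0504). SLC25A28 changed by -1.97 and -2.56 (limma adjusted p = 0.0363 and 0.00198).

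SLC25A29, a carrier of basic amino acids, is named for its values on this scale. It had 0.00 to 17.7 RPM (median 2.36) in spring GV and 0.00 to 3.76 RPM (median 0.121) in spring MII oocytes, and 1.97 to 12 RPM (median 2.90) and 0.00 to 4.12 RPM (median 0.264) in summer. The stages overlapped in both seasons. Its log2 fold changes were -2.92 and -2.66 on RPM (limma adjusted p = 0.0187 and 0.0107), against -0.17 and -0.13 on log2(FPKM + 1). These rest on few reads, with medians of 9 and 0.5 reads in spring GV and MII oocytes and of 12 and 1 in summer. No read was found in 1 spring GV, 3 spring MII and 1 summer MII library. The part of the 0.5 reads added before the logarithm was not tested.

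SLC25A16, an inner membrane carrier linked to coenzyme A, was the only member with a mean under 1 FPKM called upward on this scale with all libraries. It had 13.8 to 31.4 RPM (median 21.4) in spring GV and 44.2 to 69.8 (median 63.1) in spring MII oocytes, without overlap, and 13.2 to 35.4 (median 22.9) and 23.1 to 54.9 (median 42.7) in summer, with overlap. Its log2 fold changes were 1.43 (limma adjusted p = 0.00218) and 0.77 (limma adjusted p = 0.0871) on RPM. TOMM6 and TOMM7 fell just short of 2-fold on this scale, at 0.92 and 0.99 in spring and at 0.88 for TOMM6 in summer, while TOMM7 in summer was at 1.23. All these values keep the adjusted p under 0.05 (0.00446 for TOMM6 and 0.00387 for TOMM7 in spring, and 0.00467 and 0.00427 in summer, limma).

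**Figure D3:**
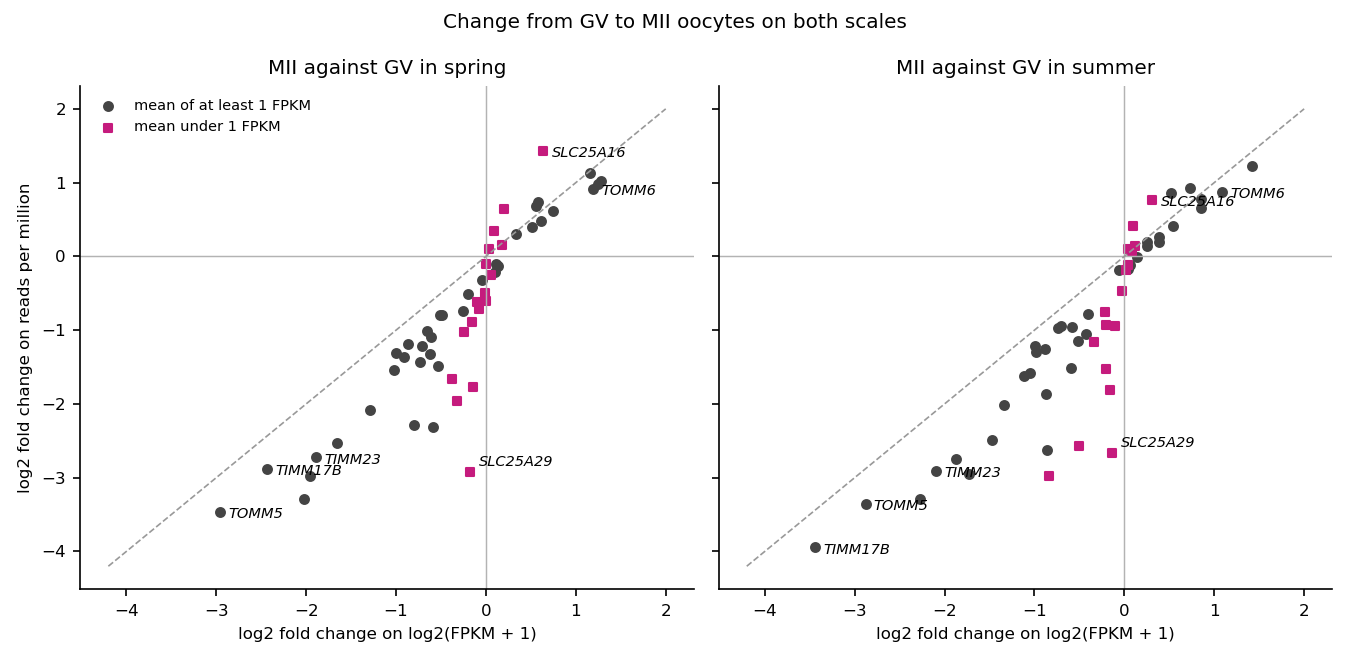
Log2 fold change of MII against GV oocytes on RPM (vertical) against that on log2(FPKM + 1) (horizontal) for 54 members tested on both scales, in spring and summer. The dashed line marks equal values. Members with a mean under 1 FPKM (squares) crowd near 0 on the horizontal axis, and SLC25A29 reaches -2.92 on the vertical axis in spring. SLC25A29 had a median of 0.5 reads in spring MII oocytes.

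Complete separation of the stages was read against all genes in the same way. In spring, 4 members were higher and 6 lower in MII oocytes without overlap between the 6 and 6 libraries, beside 4.65% and 8.98% of all genes tested, and in summer 3 were higher and 10 lower, beside 3.07% and 14.7%.

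To ask whether summer changed these transcripts, the seasons were compared within each stage. No member was called by limma between summer and spring GV oocytes, where 0.0315% of all genes were called, or passed p under 0.05 before adjustment, where 1.55% of all genes did. The MII oocytes likewise gave no call by limma (0.042% of all genes) and no member with p under 0.05 before adjustment (2.11% of all genes). On RPM, no member was called in either stage, beside 0.955% of all genes in GV and 1.24% in MII oocytes, nor did any member pass p under 0.05. The median log2 fold change of the 61 members was 0.05 in GV oocytes, with 35 higher in summer, and -0.02 in MII oocytes, with 25 higher.

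The members nearest to a season difference are given by value. In GV oocytes the smallest p was that of SLC25A25, which had reads in 5 of 6 spring libraries, at most 10, and in none of the 6 summer libraries (limma p = 0.0537 and adjusted p = 1, and an exact permutation p of 0.0152). TIMM21 had medians of 3.67 and 4.53 FPKM in spring and summer GV oocytes (log2 fold change 0.47, standard error 0.27), and SLC25A14, an uncoupling protein of the brain, of 0.397 and 0.566 FPKM (0.15, standard error 0.10). In MII oocytes SLC25A16 ran from 0.799 to 1.62 FPKM (median 1.08) in spring and from 0.511 to 1.11 FPKM (median 0.713) in summer, with overlap (log2 fold change -0.28, standard error 0.13, limma p = 0.0538 and adjusted p = 1, and an exact permutation p of 0.0303). TIMM22 and TIMM13 followed, with log2 fold changes of 0.36 (standard error 0.24) and -0.38 (standard error 0.26).

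**Figure D4:**
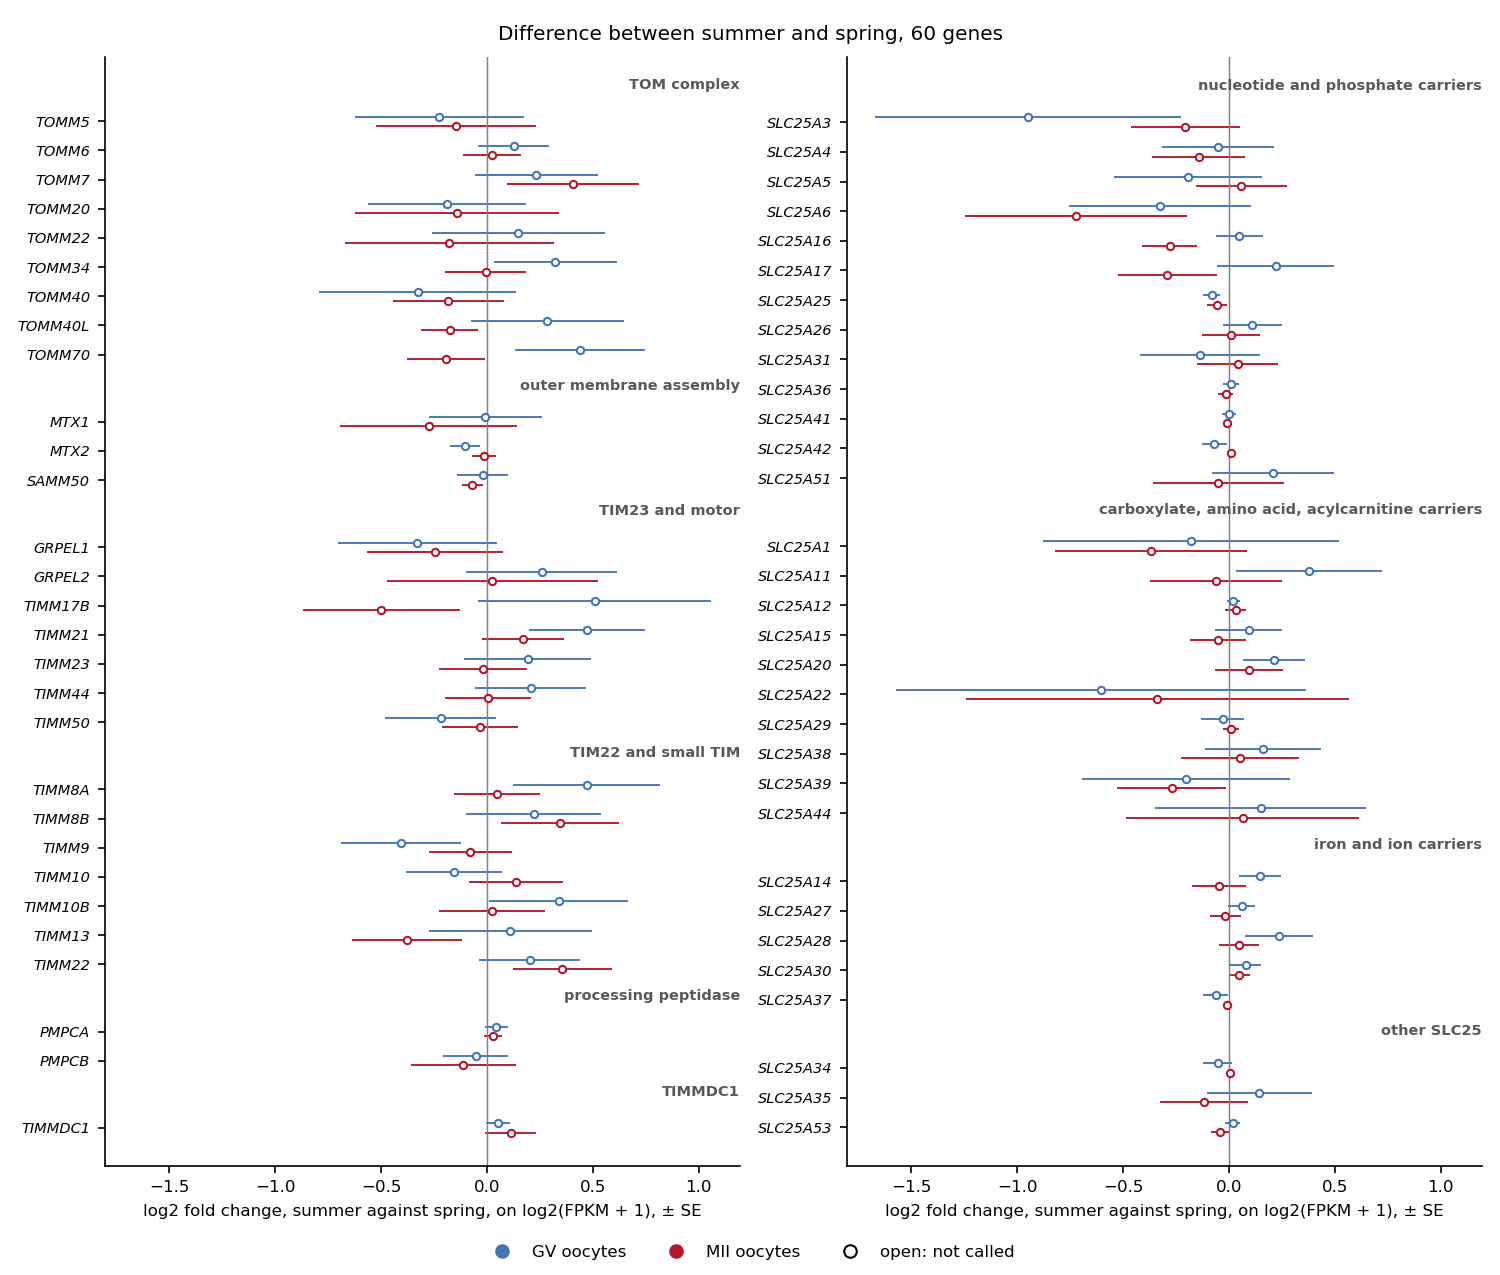
Log2 fold change of summer against spring on log2(FPKM + 1) for 60 of the 61 tested genes, grouped by role, in GV (blue) and MII oocytes (red), with standard errors. All points are open, since no member was called, and the members' medians are 0.05 in GV and -0.02 in MII oocytes.

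The difference between the seasons in the maturation change was fitted over all 24 libraries, as summer less spring. By limma no member passed the call (0.21% of all genes) or an unadjusted p of 0.05 (1.8%). On RPM no member was called, where 1.86% of all genes were, and 1, TOMM70, had an unadjusted p under 0.05. Its difference on RPM was -0.81 (limma adjusted p = 1). None of the 6 members called in a single season on the FPKM scale passed this test. TOMM70, with -0.71 in spring and -1.34 in summer, had a difference of -0.63 (standard error 0.36, limma adjusted p = 1), and TIMM17B, called in both, had the largest difference in size, -1.01 (standard error 0.69, limma adjusted p = 1). Without the 3 shallowest libraries, the difference of TIMM17B was -1.04 (limma adjusted p = 1), which passed the fold and the unadjusted p of a call.

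Genes that work beside the members were taken from a list of chaperones, inner membrane assembly factors, proteases, uncoupling proteins, pyruvate carriers and porins, of which 29 of 33 were listed and 28 tested. In spring 1 rose and 3 fell with maturation, and in summer none rose and 4 fell, with 3.57%, 8.25%, 2.2% and 9.26% of all genes as the background. VDAC1, the main outer membrane porin, was upregulated in spring, with medians of 2.47 and 9.06 FPKM (log2 fold change 1.28, limma adjusted p = 0.0049), and was higher by less than 2-fold in summer (0.94, limma adjusted p = 0.0262), and VDAC3 was downregulated in both seasons, from 16.7 to 4.06 FPKM and from 19.6 to 3.48 FPKM (-1.63 and -2.04, limma adjusted p = 0.0112 and 0.000113). GFER, the sulfhydryl oxidase that keeps the disulfide relay for small TIM proteins oxidised, was downregulated in both, from 26.4 to 7.31 FPKM and from 26.6 to 7.34 FPKM (-1.63 and -1.92, limma adjusted p = 0.00482 and 0.00148). CHCHD4, its partner in that relay, had log2 fold changes of 0.86 and 0.35 (limma adjusted p = 0.146 and 0.558). APOO, a subunit of the cristae-organising MICOS complex, was downregulated in both (-1.36 and -1.18), and OXA1L, the insertase of the inner membrane, in summer (-1.02), with a smaller change in spring (-0.72, limma adjusted p = 0.00445) that was a call on RPM (-2.04, limma adjusted p = 0.00122). The matrix chaperones HSPA9, HSPD1 and HSPE1 were not called in either season. No gene of this list was called between the seasons in either stage or in the difference of the changes by limma on the FPKM scale. On RPM, 27 genes of the list were tested, and 1 rose and 10 fell in spring and 1 rose and 11 fell in summer, beside the shares of all genes given above for that scale. PAM16, a subunit of the import motor named for these values, was called there between the seasons in GV oocytes (-1.64, limma adjusted p = 0.999) and in the difference of the changes (2.19, limma adjusted p = 1).

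The span of 10 members overlaps another listed gene, and library preparation of this kind does not mark the strand. TOMM6, TIMM17B, TIMM8A, TIMM13, GRPEL1 and SLC25A27 lie inside entries drawn over 6400077 to 32596277 bp, longer than a single gene would be. Whether reads were shared there, or between near-identical copies such as the ADP/ATP carriers, was not tested.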

How the data were processed

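RNA was measured in 24 libraries, 6 in each of 4 groups of bovine oocytes. Per the methods and the submitters' processing notes, trimmed reads were mapped by the authors with STAR 2.5.3a on the UMD3.1.1 build, and expression was given as FPKM. These deposited FPKM values sum to the same total in every library and never fall below 0.01. The methods describe the length as exonic, whereas the values fit the genomic span (stop minus start), from which reads were recovered. Groups came from the sample labels.

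The 9526 genes over 0.1 FPKM in at least 1 library were fitted as log2(FPKM + 1) with limma 3.58.1 in R 4.3.3 (trend), with the 12 libraries compared in a fit or all 24 for the difference between seasons. Partek, used by the authors, was not used. Single genes had an exact permutation test over 924 assignments. The log2(FPKM + 1) fit was also run on simulated data. Python 3.11.15 drew the summaries.

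The members, role groups, gene lists and tests were chosen with earlier results of these data known. Named are, per comparison and role group, up to 3 called members in each direction with the smallest p, the 2 with the highest mean, the 3 members with the smallest p between seasons, and listed paralogs. Genes outside this rule are said to be named for their values, or come with a count. The p-values measure the spread between these libraries, each described in the methods as a pool from 1 animal. Animals may be shared between groups, and the labels do not link them, so the fits took the libraries as independent. The alternatives tried were: no filter, a pseudocount of 0.1, a mean of at least 1 FPKM, quantile and median-of-ratios scaling, 4 groups in 1 fit, leaving out libraries, a replicate block, robust moderation, adjusted p, and RPM with 0.5 reads added (added after the values were seen). Read totals limit precision to counting error at best. Paralogs such as TIMM17A, SLC25A13 and MTX3 were not analysed here. The values of 1 member, which is included in the counts, are not reported here.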

Additional observations from a re-analysis of the deposited data

Results flagged for a closer look

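In 172 groups of 6 libraries, 43 named genes in 4 groups each, the highest or the lowest library was compared with its nearest neighbour on the log2(FPKM + 1) scale by Dixon's criterion. It stood apart in 30 groups, where chance alone would give about 1 in 20 for normally spread values. Of these 30, 24 were in the 3 shallowest libraries, namely 9 for summer GV replicate 2, 9 for spring MII replicate 6 and 6 for spring GV replicate 6. That rate does not hold where the group's median was 0 reads, as for SLC25A37 and SLC25A25 in spring MII and SLC25A41 in summer GV oocytes, since a few reads set the result there. The part of depth in these values was not tested.

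In summer GV replicate 2, the highest value of the group was 264 FPKM for TIMM13 (group median 90.6), 13.3 FPKM for TOMM20 (2.89), 11.5 FPKM for GRPEL2 (3.22), 10.6 FPKM for TOMM70 (5.56), 2.14 FPKM for SLC25A31 (1.2), 0.225 FPKM for SLC25A36 (0.0631), 0.154 FPKM for SLC25A12 (0.0687) and 0.0358 FPKM for SLC25A37 (0.0131), and TIMM17B was lowest there at 21.7 FPKM (70.9). In spring MII replicate 6, the highest value was 25.6 FPKM for TOMM20 (3.24), 22.3 FPKM for GRPEL2 (3.66), 6.27 FPKM for MTX1 (0.301), 5.74 FPKM for SLC25A31 (2.48), 2.88 FPKM for TIMM10B (0.974), 1.07 FPKM for SLC25A14 (0.287), 0.26 FPKM for SLC25A25 (0.01), 0.226 FPKM for SLC25A53 (0.0158) and 0.0507 FPKM for SLC25A37 (0.01). In spring GV replicate 6, the highest value was 174 FPKM for SLC25A22 (6.44), 62.5 FPKM for SLC25A5 (14.8), 1.91 FPKM for TOMM40L (0.605) and 0.332 FPKM for SLC25A37 (0.0130), while TIMM17B at 6.75 FPKM (56.8) and TIMM21 at 0.905 FPKM (3.67) were lowest. The 174 FPKM of SLC25A22 stand for 419 reads and the 6.75 FPKM of TIMM17B for 15.

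The other 6 values were the highest of their groups. SLC25A4 was at 13.2 FPKM in spring GV replicate 2 (6.61), SLC25A41 at 0.153 FPKM in summer GV replicate 4 (0.01), SLC25A40 at 0.0326 FPKM in spring MII replicate 2 (0.0211) and at 0.0539 FPKM in summer MII replicate 2 (0.0212), PMPCB at 2.98 FPKM in summer MII replicate 2 (1.28) and SLC25A14 at 0.599 FPKM in summer MII replicate 6 (0.315).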

How the results depend on the processing

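Of 600 values of the called members under the alternatives, 570 kept direction and call, 30 kept direction but were no longer called, and none changed direction. Part of this was fixed in advance. No filter, a mean of at least 1 FPKM, 4 groups in 1 fit, a replicate block, robust moderation and adjusted p leave a gene's fold change as it was. Under these settings only the p-value could move. Members called with maturation, 12 in each season, became 25 in spring and 26 in summer on RPM (41.6% and 40.3% of all genes), 26 and 28 on RPM without the 3 shallowest libraries (44.7% and 43.6%), 20 in summer with a pseudocount of 0.1 (26.5%), and 26 in summer by adjusted p alone (30.7%), against 11.8% and 11.5% of all genes at first. The median log2 fold change of members moved to -0.384 and -0.529 in spring and summer with a pseudocount of 0.1, to -0.537 and -0.583 for means of at least 1 FPKM, to -0.793 and -0.947 on RPM, and to -0.864 and -0.966 on reads without the 3 libraries. Without the 3 libraries, on FPKM and on RPM, 1 member was called in the difference between the seasons' changes, TIMM17B, named after its value was seen. Median-of-ratios scaling gave 3 members up and 10 down in spring, against 4 and 8, and quantile scaling 4 up and 8 down in summer, against 2 and 10. Leaving out each library in turn gave 10 to 13 members in spring, 11 to 14 in summer and 0 to 0 in the other comparisons. The median lay between -0.183 and -0.0427 in spring, -0.176 and -0.0814 in summer, -0.0256 and 0.0764 between seasons in GV, -0.0846 and 0.00131 in MII, and -0.102 and -0.00236 in the difference of changes. The labels do not say whether a replicate number marks a cow, and the deviations of same-numbered libraries correlated between -0.44 and 0.76, with 0 to 4 of 6 libraries closest to their own number. Same-numbered libraries had a higher median correlation than other pairs in spring MII with summer MII (0.551 and -0.0447). This also held in summer GV with summer MII (0.289 and -0.0837) and in spring GV with spring MII (0.0891 and -0.0357). It was lower in the remaining pairs of groups. With a replicate block, 12 members were called in spring and 12 in summer, and 0 in the season comparisons. Over all genes, the block moved the number with an unadjusted limma p under 0.05 between seasons from 201 to 370 in MII oocytes. In GV oocytes it went from 148 to 111. Genes with few reads, such as SLC25A37, SLC25A25 and SLC25A41, are limited by depth.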
